A study of Mus musculus with 12 samples.

Results

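The small nuclear ribonucleoproteins (snRNPs) and the proteins that join them in the spliceosome were followed in the spinal cord of mice aged 13 days, from a line used as a model of severe spinal muscular atrophy (SMA). Members were the genes whose single symbol in the array annotation began with Snrp, Snrnp, Lsm and a digit, Sf3a, Sf3b, or Prpf and a digit. The rule found 80 probe sets of 42 genes, among 12393 genes with a probe set of 1 symbol, and each gene is represented by its brightest probe set. All 42 symbols matched mouse RefSeq. By particle, 5 genes encode Sm core proteins, 2 belong to U1, 2 to U2 proper, 9 to SF3A and SF3B, 3 to U5, 6 to U4/U6 and the tri-snRNP, 6 to the LSm rings, 4 are other LSm proteins, 2 belong to the minor spliceosome and 3 are other Prp factors. A further 8 probe sets carry a member's symbol together with another one, and they are not described. Snrpd1, Snrpd2, Snrpa and Lsm5 therefore have no value here. Signal that Snrpn shares with Snurf is left out too, so Snrpn rests on 1 probe set.

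Total RNA of spinal cord was hybridised to 12 arrays, in 3 groups of 4 mice. The arrays give 1 signal intensity per probe set, a linear value without a physical unit that sets each probe set against itself in other samples and not against other genes. SMA ceftriaxone mice had no intact mouse Smn allele (mSmn -/-) and received 200 mg/kg of the beta-lactam antibiotic ceftriaxone daily from day 5. SMA vehicle mice had the same genotype and received vehicle. Wildtype mice, also given vehicle, kept 1 intact mouse Smn allele (mSmn+/-). Some labels call vehicle-treated mice untreated. All 3 groups are of line 4299 on an FVB background and carry the human transgenes SMN2 and SMNΔ7, so the wildtype mice are not free of transgenes and hold a single mouse allele. The labels mention both whole cords and the lumbar segments as the tissue.

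Splicing removes introns from pre-messenger RNA. The U1, U2, U4, U5 and U6 snRNPs, each a small RNA with its proteins, assemble on an intron: U1 pairs with the 5′ splice site, U2 with the branch point, and the U4/U6·U5 tri-snRNP then joins before catalysis. A ring of Sm proteins is loaded onto most of these RNAs by the SMN complex, whose central protein is reduced in SMA. U6 carries a related LSm ring instead. Motor neurons of the spinal cord are the cells chiefly lost in the disease, although snRNPs are made in every cell.

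The labels were checked with Smn1. Its signal was 15.8, 3.3, 6.4 and 3.6 on the SMA ceftriaxone arrays and 3.6, 3.7, 3.9 and 5.7 on the SMA vehicle arrays, against 306, 414, 263 and 269 on the wildtype arrays, so the genotypes did not overlap. Wildtype array 2 stood apart, with thymus markers. The summed signal of 12 measured thymocyte markers (of 14 listed) was 49195 there, against 1600.5 to 1646 on the other wildtype arrays and 1770 to 2293 on the 8 SMA arrays; Rag1, a recombinase of developing lymphocytes, read 7863 against 0.5 to 130 on the other 11 arrays. Markers of cycling cells summed to 34736 on wildtype array 2 and to 6165 to 6383 on the other wildtype arrays, with 5344 to 7933 on the SMA ceftriaxone and 7175 to 8313 on the SMA vehicle arrays. This array correlated at 0.924 to 0.93 with the other wildtype arrays, which correlated at 0.986 to 0.989 among themselves (across the 13575 probe sets tested), and the counts below are given with and without it. Xist, expressed from the inactive X chromosome, read above 1000 on 4 SMA ceftriaxone, 2 SMA vehicle and 1 wildtype arrays, so sex, which the labels do not give, is unevenly spread over the groups. The ratio of 3′ to 5′ Gapdh signal lay between 0.72 and 0.761 on all arrays, and that of b-actin between 1.19 and 1.44.

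The spliceosome genes were high on the array with thymus markers, whose part in these values was not tested. Wildtype array 2 was the highest wildtype array for 33 of the 41 members tested (80.5%), against 33.7% of all 8004 genes tested. On it the members lay a median of 0.55 log2 units above the mean of the other wildtype arrays, while all genes lay at -0.10. Relative to the mean of the other 11 arrays, the median member was at -0.06 to 0.01 on the SMA ceftriaxone arrays, 0.12 to 0.16 on the SMA vehicle arrays, -0.14, -0.20 and -0.17 on wildtype arrays 1, 3 and 4, and 0.33 on wildtype array 2. Without that array the 3 groups did not overlap in this median, in the order SMA vehicle, SMA ceftriaxone, wildtype.

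**Figure D1:**
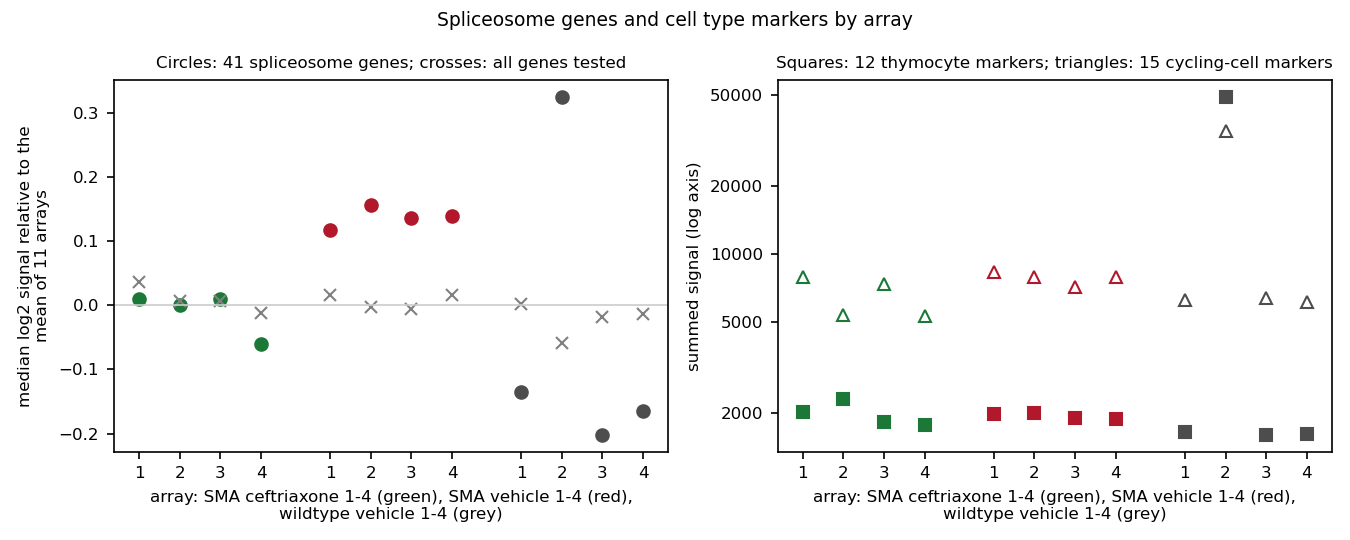
Left, the median log2 signal of the 41 spliceosome genes on each array (circles) and of all genes tested (crosses), relative to the mean of the 11 arrays other than wildtype array 2; right, the summed signal of thymocyte markers (squares) and cycling-cell markers (open triangles) on a log axis. Wildtype array 2 is highest in every series but that of all genes, and the SMA vehicle circles lie at 0.12 to 0.16, above those of SMA ceftriaxone.

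Of the 42 genes, 41 passed the filter on dim probe sets; Lsm14a, whose signal was 0.2 to 16.5 on all arrays, did not. In SMA vehicle cords 14 of 41 members (34.1%) were higher than in wildtype cords and 0 were lower (limma on log2 of signal plus 16, adjusted p under 0.05 over 13575 probe sets). A log2 fold change here is a difference between group means on that scale, which understates the change of dim probe sets. Over all 8004 genes tested, 25.5% were higher and 23.6% lower. The members' median log2 fold change was 0.18, against 0.01 for all genes. At an unadjusted p under 0.05, 16 members were higher and 0 lower, against 28.7% and 27% of all genes. Leaving out wildtype array 2, 27 of 41 (65.9%) were higher and 0 lower, against 31.2% and 28.9% of all genes, with a median of 0.33; at an unadjusted p under 0.05 these were 28 and 0, against 33.2% and 31%. The 2 fits shared 13 calls; Prpf31 was called only with all arrays, and 14 genes only without array 2. With no overlap between the groups, 8 of 41 members were higher, a smaller share than the 24.1% of all genes. By the same measure 0 members were lower, against 20.7% of all genes.

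Ceftriaxone was set against vehicle within the SMA genotype. In SMA ceftriaxone cords 9 of 41 members (22%) were lower than in SMA vehicle cords and 0 were higher, against 17.8% lower and 19.9% higher over all genes. The 9 are Lsm1, Lsm2, Lsm4, Lsm10, Lsm14b, Prpf38a, Prpf39, Prpf40b and Sf3b4. The median log2 fold change was -0.11, against 0.00 for all genes. At an unadjusted p under 0.05, 10 were lower and 0 higher, against 22.7% and 24.5% of all genes. In 13 of 41 members the SMA ceftriaxone arrays all lay below the SMA vehicle arrays and in 1 above (background 23.4% and 24%). Wildtype array 2 enters this comparison only through the shared estimate of spread and the filter that sets which probe sets are tested. Without it 15 (36.6%) were lower and 0 higher, against 25.7% and 26.4% of all genes. At an unadjusted p under 0.05 these were 17 lower and 1 higher, against 28.9% and 29.6%. With Xist signal as a covariate 3 were lower (Lsm1, Lsm14b and Prpf39), and among the 7 arrays of high Xist signal 8 were lower. The count fell to 4 without SMA vehicle array 1 and to 5 without SMA vehicle array 4, SMA ceftriaxone array 2 or SMA ceftriaxone array 4. This comparison shares its SMA vehicle arrays with the one before, so opposite signs in the 2 are not independent.

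Against wildtype, 1 of 41 members (2.44%) was higher in SMA ceftriaxone cords, Snrpa1, and 0 were lower; over all genes 3.84% were higher and 0.962% lower. At an unadjusted p under 0.05, 5 were higher and 0 lower (14.4% and 7.01% of all genes). With no overlap between the groups, 1 of 41 members (2.44%) was higher and 0 were lower, against 8.77% and 4.07% of all genes. Once wildtype array 2 was left out, 9 (22%) were higher and 0 lower, against 7.13% and 4.51% (unadjusted, 15 higher and 1 lower, against 17% and 12%). These 9 are Prpf3, Prpf39, Sf3a2, Sf3b1, Snrnp70, Snrpa1, Snrpb, Snrpb2 and Snrpe. The median log2 fold change was 0.05 with all arrays and 0.18 without array 2, against 0.02 for all genes in both fits.

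Several of the cell type marker sums moved with the same groups. Those of neurons overlapped between SMA vehicle and wildtype but were lower in SMA ceftriaxone than in SMA vehicle, without overlap. The sums of cycling cells, given above, were higher in SMA vehicle than on the wildtype arrays other than array 2, and overlapped SMA ceftriaxone. Markers of immature neurons (8 of 8 measured) summed to 21703 to 28816 in SMA ceftriaxone, 44606 to 55993 in SMA vehicle and 19795 to 25731 in wildtype cords. Those of mature oligodendrocytes (10 of 12 measured) summed to 104611 to 114935, 26323 to 55470 and 89672 to 144960 in the same order, and those of skeletal muscle (6 of 6) to 257 to 767, 2449 to 6070 and 599.6 to 1662. Astrocyte markers (6 of 6 measured) summed to 29700.4 to 31641 in SMA ceftriaxone, 15282 to 20762 in SMA vehicle and 21537 to 35383 in wildtype cords, and microglial markers (6 of 6) to 5741 to 6712, 3986 to 4693 and 5225 to 7434. Without wildtype array 2 the wildtype sums were 19795 to 21734 for immature neurons, 117654 to 144960 for mature oligodendrocytes, 29445 to 35383 for astrocytes and 5484 to 7434 for microglia. Markers of neurons (12 of 12 measured) summed to 66200 to 73804 in SMA ceftriaxone and 75202 to 84066 in SMA vehicle cords. In wildtype cords they summed to 53839 to 78616, and to 74947 to 78616 without array 2, which overlaps SMA vehicle. Of these markers 0 read 0 on any array. In bulk cord, fewer or more cells of a type and less or more RNA per cell cannot be told apart, and the part of these shifts in the splicing genes was not tested.

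**Figure D2:**
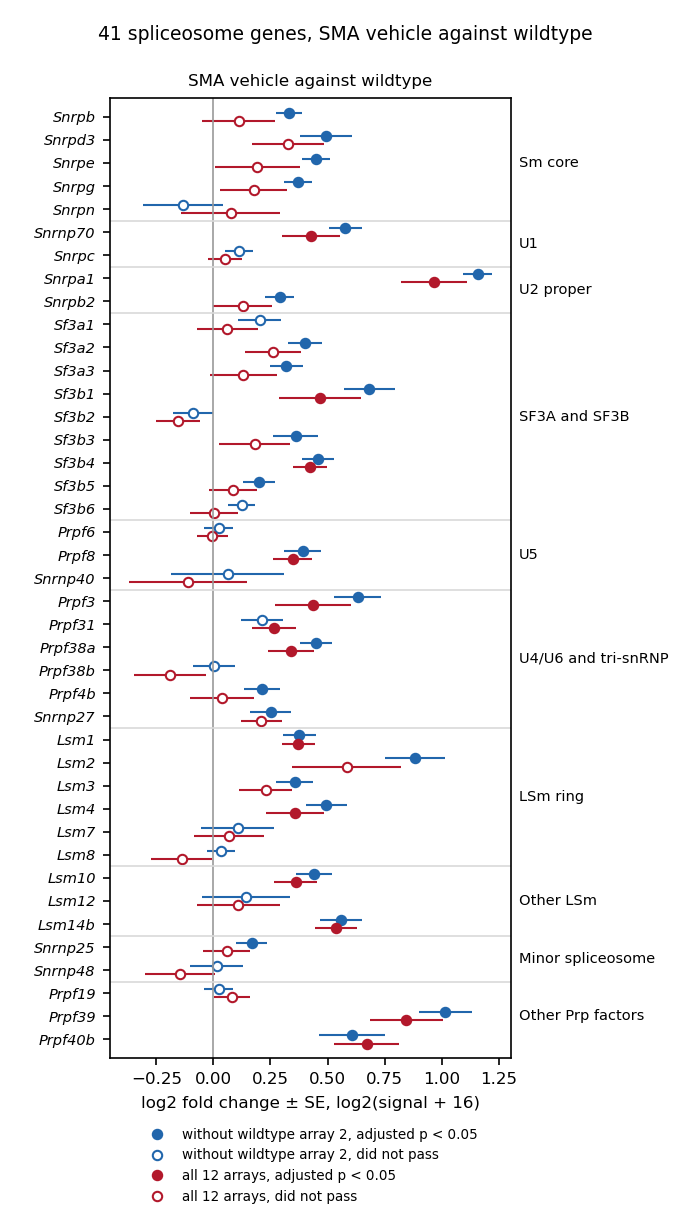
Log2 fold change ± SE of each of the 41 spliceosome genes in SMA vehicle against wildtype cords, grouped by particle, from all 12 arrays (red, lower of each pair) and without wildtype array 2 (blue); filled points passed an adjusted p of 0.05. Most blue points lie right of the red ones, and Snrpa1 lies farthest right in both.

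In U2 proper, Snrpa1 was higher in both SMA groups than in wildtype cords. It encodes a protein that binds U2 RNA together with the product of Snrpb2. Its signal was 2131, 2174, 2332 and 2029.5 in SMA ceftriaxone and 2149.8, 2432, 2385 and 2359 in SMA vehicle cords, against 1018, 1077 and 1011 on wildtype arrays 1, 3 and 4 and 1770.4 on wildtype array 2. All 8 SMA arrays lay above all 4 wildtype arrays, and the SMA groups overlapped each other. The log2 fold change was 0.97 ± 0.15 (SE) in SMA vehicle against wildtype (adjusted p = 0.000142) and 1.16 ± 0.07 without wildtype array 2 (adjusted p = 1.78e-07). SMA ceftriaxone cords were higher than wildtype by 0.86 ± 0.15 (adjusted p = 0.00767; without array 2, 1.05 and adjusted p = 6.04e-06) and differed from SMA vehicle by -0.11 ± 0.15 (adjusted p = 0.605). In a fit of only SMA ceftriaxone and wildtype arrays the adjusted p was 0.0509. Its other 2 probe sets were higher in SMA vehicle by 1.23 and 1.34 (adjusted p = 5.53e-06 and 0.000383) and in SMA ceftriaxone by 0.93 and 0.91 (adjusted p = 0.00219 and 0.0437). All 3 probe sets of Snrpa1 thus passed in both SMA groups against wildtype. The 2 comparisons share their wildtype arrays, and the 3 probe sets were read on the same arrays, so these calls are not independent.

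Its partner Snrpb2 passed only without wildtype array 2. The signal was 1375, 1486, 1579 and 1479 in SMA ceftriaxone and 1572, 1506, 1580.2 and 1511 in SMA vehicle cords, against 1345, 1249 and 1186 on wildtype arrays 1, 3 and 4 and 1980.2 on wildtype array 2. Only wildtype array 2 brought wildtype above the SMA arrays. With all arrays the fold changes did not pass (0.13 and 0.07 against wildtype, adjusted p = 0.436 and 0.823). Without array 2 they were 0.29 ± 0.07 for SMA vehicle (adjusted p = 0.00201) and 0.23 ± 0.07 for SMA ceftriaxone (adjusted p = 0.042). A dimmer probe set gave 0.56 in SMA vehicle against wildtype (adjusted p = 0.000477) and -0.41 in SMA ceftriaxone against SMA vehicle (adjusted p = 0.00349) without array 2, and did not pass with it (adjusted p = 0.16 and 0.103). The bases upstream of both genes are shown because their proteins act as a pair on U2 RNA. Each run is the 250 bases before the annotated start on the plus strand of GRCm38.p6 (RefSeq), 5′ to 3′, Snrpa1 at chr7:66060086-66060335 and Snrpb2 at chr2:143062819-143063068, with GC boxes and ETS cores in capitals.
Snrpa1: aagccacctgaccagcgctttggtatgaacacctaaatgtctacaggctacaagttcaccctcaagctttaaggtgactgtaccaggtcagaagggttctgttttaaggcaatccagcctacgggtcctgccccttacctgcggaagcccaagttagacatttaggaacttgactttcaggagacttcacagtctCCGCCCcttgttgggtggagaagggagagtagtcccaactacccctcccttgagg
Snrpb2: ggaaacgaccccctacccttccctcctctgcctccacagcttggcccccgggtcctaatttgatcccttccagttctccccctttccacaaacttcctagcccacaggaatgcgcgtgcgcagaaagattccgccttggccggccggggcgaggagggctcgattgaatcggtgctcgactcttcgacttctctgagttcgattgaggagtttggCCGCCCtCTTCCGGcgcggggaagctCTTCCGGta
Snrpa1 holds 1 GC box, 55 to 50 bases before the start, and no ETS core; Snrpb2 holds 1 GC box, 35 to 30 bases before the start, and 2 ETS cores, at 28 to 22 and 9 to 3.

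The Sm core proteins form the ring around snRNA that SMN helps to load. With all arrays 0 of 5 passed in any comparison on the brightest probe set. Without wildtype array 2, 4 of 5 were higher in SMA vehicle cords than in wildtype (31.2% of all genes), 3 of 5 were lower in SMA ceftriaxone than in SMA vehicle cords (25.7%), and 2 of 5 were higher in SMA ceftriaxone than in wildtype cords (7.13%). Snrpb, which encodes SmB, read 2027, 2124, 2209.9 and 2193 in SMA ceftriaxone and 2228, 2234, 2123 and 2177 in SMA vehicle cords, against 1813, 1733 and 1669 on wildtype arrays 1, 3 and 4 and 3209 on wildtype array 2. The SMA groups overlapped each other and lay above those 3 wildtype arrays, and wildtype array 2 exceeded every other array. The log2 fold change in SMA vehicle was 0.11 ± 0.16 with all arrays (adjusted p = 0.595) and 0.33 ± 0.06 without array 2 (adjusted p = 0.00022). SMA ceftriaxone against wildtype gave 0.30 ± 0.06 without array 2 (adjusted p = 0.00708).

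Snrpe, which encodes SmE, read 4103, 4224, 4256 and 3857 in SMA ceftriaxone and 4585, 5062, 5009 and 4591 in SMA vehicle cords, against 3496, 3732 and 3323 on wildtype arrays 1, 3 and 4 and 7194 on wildtype array 2. Apart from wildtype array 2 the 3 groups were separate, with SMA vehicle highest. Without that array the log2 fold changes were 0.45 ± 0.06 in SMA vehicle against wildtype (adjusted p = 4.19e-05), -0.23 ± 0.06 in SMA ceftriaxone against SMA vehicle (adjusted p = 0.00514) and 0.22 ± 0.06 in SMA ceftriaxone against wildtype (adjusted p = 0.0357); with all arrays the last was -0.03 (adjusted p = 0.946), of opposite sign. For Snrpg, which encodes SmG, the signal was 3562, 3053, 3422 and 3167 in SMA ceftriaxone and 3766, 3920.1, 4161 and 3958 in SMA vehicle cords, against 3033, 3160.5 and 2967 on wildtype arrays 1, 3 and 4 and 5229 on wildtype array 2. SMA vehicle lay above both other groups once wildtype array 2 is set aside. Its fold changes without that array were 0.37 ± 0.06 in SMA vehicle against wildtype (adjusted p = 0.000234) and -0.26 ± 0.06 in SMA ceftriaxone against SMA vehicle (adjusted p = 0.00242). A dimmer probe set of Snrpg was lower in SMA ceftriaxone than in SMA vehicle with all arrays (-0.51, adjusted p = 0.0313) and higher in SMA vehicle without array 2 (0.40, adjusted p = 0.00352).

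Snrpd3, which encodes SmD3, read 1272, 1809, 1578 and 1493 in SMA ceftriaxone and 1712, 2049, 2052 and 1666 in SMA vehicle cords, against 1433, 1215 and 1318 on wildtype arrays 1, 3 and 4 and 2098 on wildtype array 2. The SMA groups overlapped. The brightest probe set gave 0.33 ± 0.16 in SMA vehicle with all arrays (adjusted p = 0.105) and 0.49 ± 0.11 without array 2 (adjusted p = 0.00255), whereas its other 2 probe sets were higher with all arrays, by 0.57 and 0.41 (adjusted p = 0.000601 and 0.00472). In SMA ceftriaxone against SMA vehicle the brightest probe set gave -0.28 ± 0.16 with all arrays (adjusted p = 0.177). It passed there only without array 2 (-0.28 ± 0.11, adjusted p = 0.0403). In SMA ceftriaxone against wildtype it gave 0.04 with all arrays (adjusted p = 0.916), whereas the mean of the gene's probe sets was called higher (adjusted p = 0.0363). The calls on Snrpd3 thus depended on the probe set as well as on array 2. Snrpn, an imprinted gene for the SmN protein of brain, read 282, 234, 223 and 278 in SMA ceftriaxone and 381, 318, 357 and 206 in SMA vehicle cords, against 350.5, 297 and 374 on wildtype arrays 1, 3 and 4 and 183 on wildtype array 2. Here wildtype array 2 was the lowest of the wildtype arrays, and the groups overlapped with all arrays. These values come from the 1 probe set that carries the symbol Snrpn alone, and any shared with Snurf was not described. None of its fold changes passed (-0.14 in SMA vehicle and -0.40 in SMA ceftriaxone against wildtype without array 2, adjusted p = 0.53 and 0.16).

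**Figure D3:**
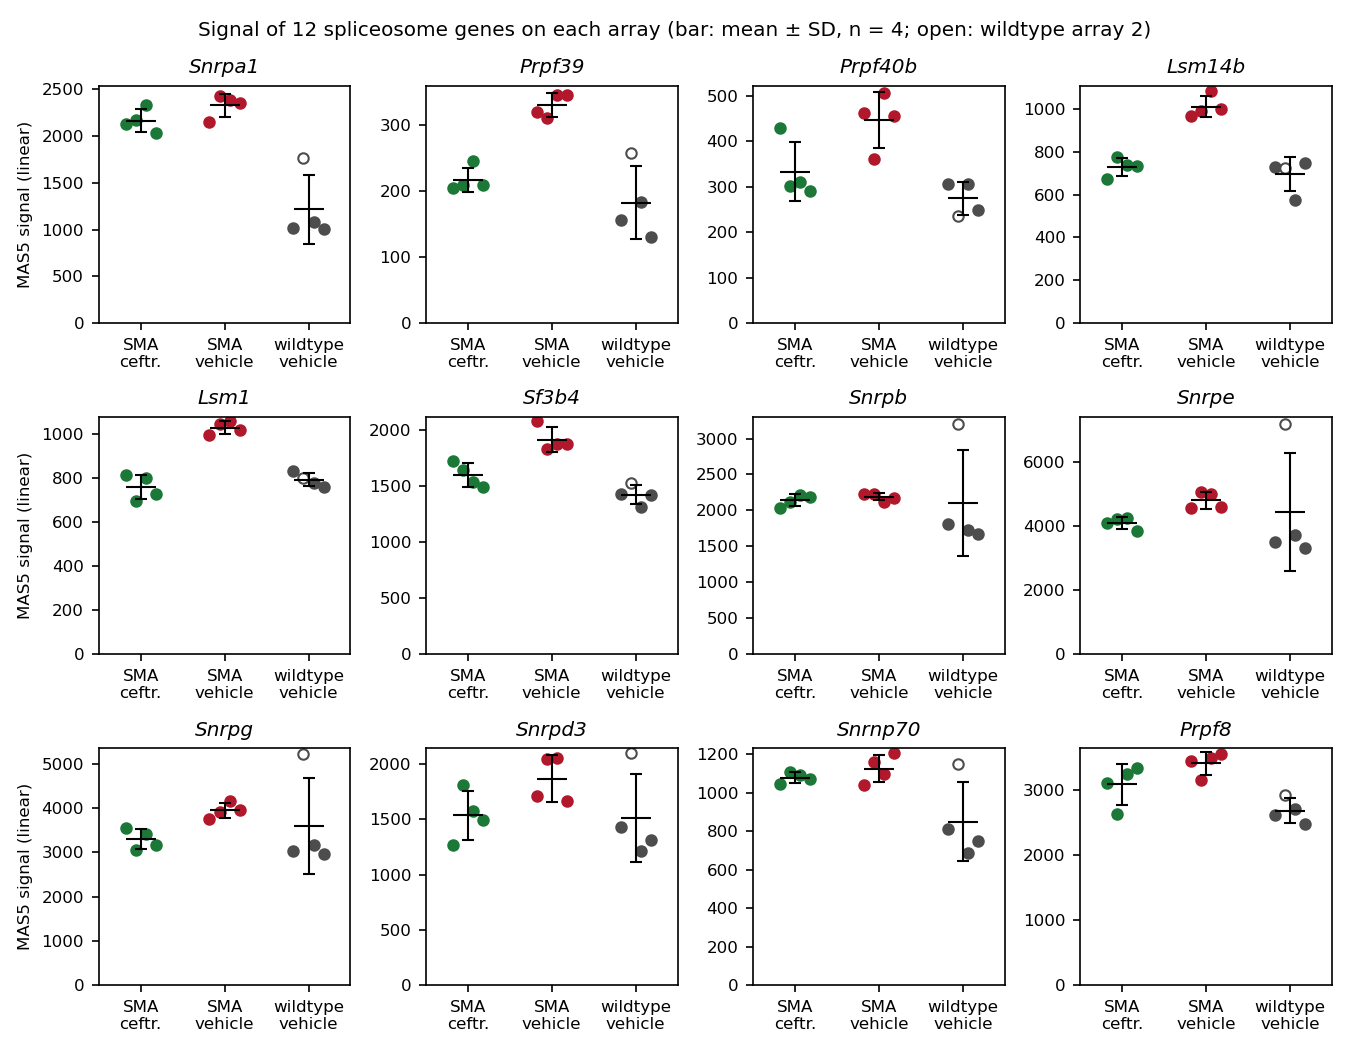
Signal of 12 spliceosome genes on each array, with the mean ± SD of 4 arrays per group (bars); points are arrays, and the open point is wildtype array 2. In Snrpb, Snrpe, Snrpg and Snrpd3 the open point lies above all other arrays, whereas in Snrpa1 it lies between the wildtype and the SMA arrays.

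U1 was represented by Snrnp70, whose product binds U1 RNA directly and contacts splicing regulators, and by Snrpc, whose product steadies the pairing with the 5′ splice site. Snrnp70 read 1044, 1110.2, 1090.2 and 1073 in SMA ceftriaxone and 1041, 1161, 1097 and 1205 in SMA vehicle cords, against 812, 686 and 749.7 on wildtype arrays 1, 3 and 4 and 1148 on wildtype array 2. Both SMA groups lay above those 3 wildtype arrays, while wildtype array 2 lay above SMA ceftriaxone and within the SMA vehicle range. It was higher in SMA vehicle cords than in wildtype by 0.43 ± 0.13 (adjusted p = 0.014; without array 2, 0.58 and adjusted p = 2.63e-05). SMA ceftriaxone differed from wildtype by 0.37 ± 0.13 (adjusted p = 0.125), and by 0.52 ± 0.07 without array 2 (adjusted p = 0.00219). Snrpc read 2409, 2369, 2485 and 2289 in SMA ceftriaxone and 2443, 2550.3, 2396 and 2418 in SMA vehicle cords, against 2203, 2135 and 2479 on wildtype arrays 1, 3 and 4 and 2691 on wildtype array 2. The groups overlapped, and the fold change in SMA vehicle was 0.05 ± 0.08 (adjusted p = 0.615).

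SF3A and SF3B are the parts of U2 that grip the branch point. With all arrays 2 of 9 genes were higher in SMA vehicle cords than in wildtype (25.5% of all genes), and without wildtype array 2, 6 of 9 (31.2%). Sf3b4 read 1728, 1642, 1537 and 1490.1 in SMA ceftriaxone and 2080.3, 1833, 1880.0 and 1873 in SMA vehicle cords, against 1432, 1317 and 1424 on wildtype arrays 1, 3 and 4 and 1527 on wildtype array 2. SMA vehicle did not overlap either other group. Its log2 fold change was 0.42 ± 0.07 in SMA vehicle against wildtype (adjusted p = 0.000433) and -0.26 ± 0.07 in SMA ceftriaxone against SMA vehicle (adjusted p = 0.0156). Without array 2 these were 0.46 and -0.26 (adjusted p = 0.000109 and 0.00505). The dimmer probe set of Sf3b4 ran the other way, at -0.32 and 0.27 (adjusted p = 0.055 and 0.115), so the 2 probe sets disagree and their mean is not called in either comparison.

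Sf3b1, the scaffold of SF3B and a gene often mutated in myelodysplasia, read 2129.9, 2494, 2264 and 2548 in SMA ceftriaxone and 2234, 2834, 3148 and 3197 in SMA vehicle cords, against 1728, 1652 and 1893 on wildtype arrays 1, 3 and 4 and 3184 on wildtype array 2. Apart from that array both SMA groups lay above wildtype. It was higher in SMA vehicle by 0.47 ± 0.18 (adjusted p = 0.047; without array 2, 0.68 and adjusted p = 0.000199), a call lost in 13 of 27 alternative fits. Another of its probe sets gave 1.04 in SMA vehicle against wildtype (adjusted p = 5.71e-05) and -0.59 in SMA ceftriaxone against SMA vehicle (adjusted p = 0.00522). The third gave 0.32 and -0.19 in the same comparisons without passing (adjusted p = 0.0761 and 0.324), and passed in both without array 2 (0.51 and -0.19, adjusted p = 1.02e-05 and 0.0114). Without array 2, Sf3a2, Sf3a3, Sf3b3 and Sf3b5 were also higher in SMA vehicle, by 0.40, 0.32, 0.36 and 0.20, and Sf3b3, the large propeller protein of SF3B, was lower in SMA ceftriaxone than in SMA vehicle (-0.37, adjusted p = 0.00483). The brightest probe sets of Sf3a1, Sf3b2 and Sf3b6 passed in no comparison in either fit. On its brightest probe set the Sf3b2 arrays of SMA ceftriaxone, at 2352 to 2796, all lay above those of SMA vehicle, at 2126 to 2302, with wildtype at 2061 to 2812, without passing (0.18 against SMA vehicle, adjusted p = 0.169). A dimmer probe set of Sf3b2 went the other way and passed, at 0.24 in SMA vehicle against wildtype (adjusted p = 0.0453) and -0.29 in SMA ceftriaxone against SMA vehicle (adjusted p = 0.0228), so the direction of Sf3b2 is not settled. A dimmer probe set of Sf3a1 passed only without array 2, at 0.30 and -0.24 in the same comparisons (adjusted p = 0.0196 and 0.0478).

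U5 was represented by Prpf8, Prpf6 and Snrnp40. Prpf8, the large protein that cradles the catalytic centre, read 3111, 2632, 3249 and 3339.9 in SMA ceftriaxone and 3443, 3144, 3485 and 3549.9 in SMA vehicle cords, against 2609, 2702 and 2466 on wildtype arrays 1, 3 and 4 and 2925 on wildtype array 2. All SMA vehicle arrays lay above all wildtype arrays. It was higher in SMA vehicle cords than in wildtype by 0.35 ± 0.08 (adjusted p = 0.00411; without array 2, 0.39 and adjusted p = 0.000971), and did not pass in either ceftriaxone comparison (adjusted p = 0.192 and 0.2). Prpf6, which bridges U5 and U4/U6, was at -0.01 in SMA vehicle (adjusted p = 0.958), while its dimmer probe set fell in SMA vehicle (log2 fold change -0.44, adjusted p = 0.0166). Snrnp40 was uneven within SMA ceftriaxone, at 1032, 417, 799.5 and 424, against 571 to 654 in SMA vehicle and 550.4 to 955 in wildtype cords, and did not pass. Its dimmer probe set did not pass with all arrays either (0.30 and -0.31 in SMA vehicle against wildtype and SMA ceftriaxone against SMA vehicle, adjusted p = 0.122 and 0.134), but without array 2 it was higher in SMA vehicle (0.49, adjusted p = 0.00061) and lower in SMA ceftriaxone than in SMA vehicle (-0.31, adjusted p = 0.00928).

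Among the U4/U6 and tri-snRNP proteins 3 of 6 were higher in SMA vehicle cords than in wildtype with all arrays and 4 of 6 without wildtype array 2, against 25.5% and 31.2% of all genes. Prpf38a, a factor needed when the tri-snRNP is activated, read 841, 858, 771 and 822 in SMA ceftriaxone and 955, 1002, 1044 and 1026 in SMA vehicle cords, against 788, 731 and 684 on wildtype arrays 1, 3 and 4 and 994 on wildtype array 2. SMA vehicle lay above SMA ceftriaxone on every array and overlapped wildtype only through array 2. Its fold changes were 0.34 ± 0.10 in SMA vehicle against wildtype (adjusted p = 0.0144) and -0.29 ± 0.10 in SMA ceftriaxone against SMA vehicle (adjusted p = 0.0428), and the second call was lost in 13 of 27 alternative fits. Without array 2 they were 0.45 and -0.29 (adjusted p = 0.000136 and 0.0029). Prpf3, a U4/U6 protein mutated in a form of retinitis pigmentosa, was higher in SMA vehicle by 0.44 ± 0.17 (adjusted p = 0.0456; without array 2, 0.63 and adjusted p = 0.000174), a call lost in 15 of 26 alternative fits. Without array 2 it was higher in SMA ceftriaxone than in wildtype by 0.39 (adjusted p = 0.0317) and lower in SMA ceftriaxone than in SMA vehicle (-0.25, adjusted p = 0.0465). Prpf31, which holds U4/U6 to U5, was higher by 0.27 ± 0.10 (adjusted p = 0.0362) on its brightest probe set but lower on the other one (-0.24, adjusted p = 0.037), so its direction is not settled; the first value did not pass without array 2 (adjusted p = 0.0607) and was lost in 12 of 27 alternative fits. Snrnp27 and the kinase gene Prpf4b were higher in SMA vehicle only without array 2 (0.25 and 0.21, adjusted p = 0.0272 and 0.0354). A dimmer probe set of Prpf4b then gave 0.67 in SMA vehicle against wildtype (adjusted p = 3e-04). In SMA ceftriaxone against SMA vehicle it gave -0.43 (adjusted p = 0.00565). A second dimmer one gave 0.34 in SMA vehicle (adjusted p = 0.0242). These did not pass with all arrays, and its other tested probe sets passed in neither fit. Prpf38b passed in no comparison.

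The LSm rings come in a nuclear form on U6, built with Lsm8, and a cytoplasmic form for mRNA decay, built with Lsm1 and the same remaining subunits. Lsm1 read 814, 697, 799.5 and 727 in SMA ceftriaxone and 994, 1046, 1059 and 1017 in SMA vehicle cords, against 829.8, 778 and 759 on wildtype arrays 1, 3 and 4 and 801 on wildtype array 2. SMA vehicle lay above every other array, and wildtype array 2 lay among the wildtype values. It was higher in SMA vehicle cords than in wildtype by 0.37 ± 0.07 (adjusted p = 0.000924) and lower in SMA ceftriaxone than in SMA vehicle (-0.43 ± 0.07, adjusted p = 0.000611), a call kept in 27 of 27 alternative fits. Without array 2 these were 0.38 and -0.43 (adjusted p = 0.000603 and 0.000187). Lsm8, its nuclear counterpart, read 896 to 974 in SMA ceftriaxone and 921 to 1003 in SMA vehicle cords, against 918 to 926 on wildtype arrays 1, 3 and 4 and 1503 on wildtype array 2, and passed in no comparison. Whether Lsm1 and Lsm8 differ in their response was not tested.

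The shared subunit Lsm2 read 303, 301, 333 and 269.8 in SMA ceftriaxone and 438, 570.2, 512 and 416 in SMA vehicle cords, against 309, 234 and 223 on wildtype arrays 1, 3 and 4 and 601 on wildtype array 2. Wildtype array 2 alone exceeded the SMA vehicle arrays. The log2 fold change in SMA vehicle was 0.58 ± 0.24 with all arrays (adjusted p = 0.0595) and 0.88 ± 0.13 without array 2 (adjusted p = 9.68e-05). In SMA ceftriaxone against SMA vehicle it was -0.65 ± 0.24 (adjusted p = 0.0496; without array 2, adjusted p = 0.000868), a call lost in 11 of 26 alternative fits. Lsm4 was higher in SMA vehicle by 0.36 ± 0.13 (adjusted p = 0.0335) and lower in SMA ceftriaxone than in SMA vehicle (-0.38, adjusted p = 0.0328); these calls were lost in 9 and 7 of 27 alternative fits, and without array 2 the values were 0.50 and -0.38 (adjusted p = 0.000418 and 0.00218). Lsm3 passed only without array 2 (0.36 in SMA vehicle against wildtype and -0.20 in SMA ceftriaxone against SMA vehicle, adjusted p = 0.00213 and 0.0367), and Lsm7 passed in no comparison.

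**Figure D4:**
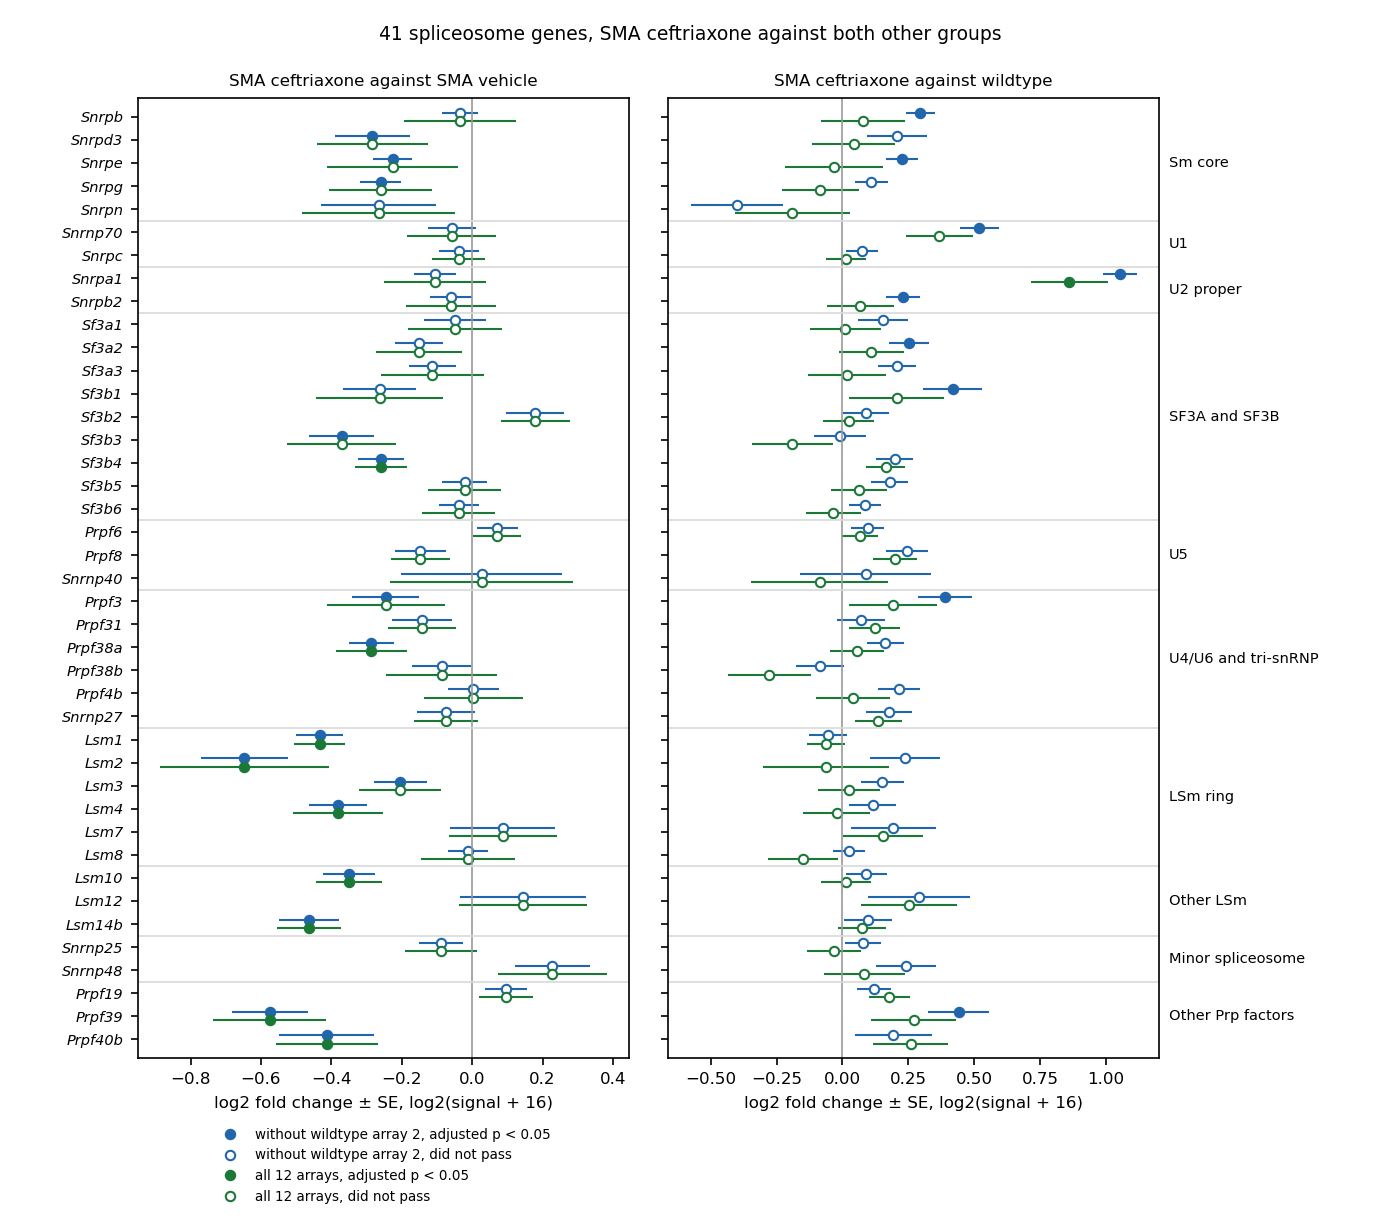
Log2 fold change ± SE of the 41 spliceosome genes in SMA ceftriaxone against SMA vehicle (left) and against wildtype (right), grouped by particle, from all 12 arrays (green, lower of each pair) and without wildtype array 2 (blue); filled points passed an adjusted p of 0.05. The 9 filled green points on the left are all below 0, and Snrpa1 is the 1 filled green point on the right.

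Lsm proteins outside the rings included some of the clearest differences. Lsm14b encodes a component of messenger RNP granules that holds mRNA from translation. It read 673, 776, 737 and 732 in SMA ceftriaxone and 969, 989, 1082 and 1002 in SMA vehicle cords, against 731, 576 and 746 on wildtype arrays 1, 3 and 4 and 727 on wildtype array 2. SMA vehicle lay above all other arrays, which overlapped each other. Its log2 fold change was 0.54 ± 0.09 in SMA vehicle against wildtype (adjusted p = 0.000334; 0.56 without array 2) and -0.46 ± 0.09 in SMA ceftriaxone against SMA vehicle (adjusted p = 0.00172), and both calls were kept in 27 of 27 alternative fits. Lsm10, a subunit of the U7 snRNP that trims histone transcripts, was higher in SMA vehicle by 0.36 ± 0.09 (adjusted p = 0.00654) and lower in SMA ceftriaxone than in SMA vehicle (-0.35, adjusted p = 0.0114); without array 2 the values were 0.44 and -0.35 (adjusted p = 0.000384 and 0.00164). Lsm12 passed in no comparison.

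Prpf39 and Prpf40b encode factors whose yeast relatives belong to the U1 snRNP. Prpf39 read 204, 209, 245 and 209 in SMA ceftriaxone and 319, 311, 346 and 345 in SMA vehicle cords, against 156, 184 and 129.8 on wildtype arrays 1, 3 and 4 and 258 on wildtype array 2. Every SMA vehicle array lay above every other array, wildtype array 2 included. Its log2 fold change was 0.85 ± 0.16 in SMA vehicle against wildtype (adjusted p = 0.00079; without array 2, 1.02 and adjusted p = 1.13e-05) and -0.57 ± 0.16 in SMA ceftriaxone against SMA vehicle (adjusted p = 0.0139). SMA ceftriaxone against wildtype passed only without array 2 (0.44 ± 0.12, adjusted p = 0.0322). Another of its probe sets gave 0.25 and -0.11 in the first 2 comparisons without passing (adjusted p = 0.273 and 0.654), and passed in the first of them without array 2 (0.45, adjusted p = 0.00626).

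Prpf40b read 430.4, 301, 311 and 292 in SMA ceftriaxone and 462, 362, 508 and 457 in SMA vehicle cords, against 307, 305 and 249.7 on wildtype arrays 1, 3 and 4 and 236 on wildtype array 2. SMA vehicle lay above wildtype throughout, and SMA ceftriaxone array 1 reached into the SMA vehicle range. The log2 fold change was 0.67 ± 0.14 in SMA vehicle against wildtype (adjusted p = 0.00186) and -0.41 ± 0.14 in SMA ceftriaxone against SMA vehicle (adjusted p = 0.0394), the second lost in 10 of 26 alternative fits. Without array 2 these were 0.61 and -0.41 (adjusted p = 0.00309 and 0.0219). Prpf19, the ubiquitin ligase that gives its name to the PRP19 complex, was at 0.08 in SMA vehicle on its brightest probe set (adjusted p = 0.408); another probe set was higher by 0.25 (adjusted p = 0.048), and the third gave 0.06 (adjusted p = 0.54). In the minor spliceosome, which removes a rare class of introns, Snrnp48 read 164, 194, 175 and 205 in SMA ceftriaxone and 149, 151, 144 and 176 in SMA vehicle cords, against 159.6, 144 and 156 on wildtype arrays 1, 3 and 4 and 246 on wildtype array 2. The groups overlapped with all arrays, and Snrnp48 passed in no comparison, while Snrnp25 was higher in SMA vehicle only without array 2 (0.17, adjusted p = 0.0496).

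The promoters of Prpf39 and Lsm14b are shown as examples of genes whose SMA vehicle arrays lay above all other arrays. The same held for Lsm1, Lsm10 and Sf3b4, whose promoters are not shown. Each run is again the 250 bases before the start on the plus strand of GRCm38.p6, 5′ to 3′, Prpf39 at chr12:65036084-65036333 and Lsm14b at chr2:180024737-180024986, with GC boxes and the CCAAT box in capitals.
Prpf39: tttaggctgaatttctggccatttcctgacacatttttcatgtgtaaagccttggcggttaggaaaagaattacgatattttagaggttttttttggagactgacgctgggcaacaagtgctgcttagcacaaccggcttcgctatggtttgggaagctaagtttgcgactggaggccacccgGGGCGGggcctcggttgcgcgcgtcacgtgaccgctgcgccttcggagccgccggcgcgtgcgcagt
Lsm14b: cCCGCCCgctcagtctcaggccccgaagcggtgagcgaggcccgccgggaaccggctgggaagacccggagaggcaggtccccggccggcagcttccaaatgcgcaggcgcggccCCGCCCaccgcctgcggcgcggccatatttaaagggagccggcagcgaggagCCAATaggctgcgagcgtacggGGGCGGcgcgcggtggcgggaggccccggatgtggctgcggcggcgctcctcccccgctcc
Prpf39 holds 1 GC box, and Lsm14b holds 3 and a CCAAT box. Of the 42 members, 35 had a window in the RefSeq table, and the first window of each was searched on both strands for 4 motifs. GGGCGG, the GC box bound by Sp factors, was in 21 of 35 windows (60%), against 32.7% of 32851 windows of all genes. CCGGAAG, the core bound by ETS factors, was in 12 (34.3%, against 6.91%), CCAAT in 15 (42.9%, against 33.8%) and TATAAA in 2 (5.71%, against 12.4%). The member windows were richer in G and C, with a median of 58.4% against 52.4%. The background counts every window of a gene, whether or not the gene is on the array, so members and background are unlike sets. No printed match overlaps another.

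Genes that work beside these proteins but fall outside the symbol rule were counted in fixed lists, against the shares of all genes given above (for SMA vehicle against wildtype, 25.5% higher and 23.6% lower). In the SMN complex 1 of 5 tested genes was higher in SMA vehicle cords than in wildtype and 0 lower: Gemin7, at 612, 555, 639.9 and 644 in SMA ceftriaxone and 908, 867, 869 and 824 in SMA vehicle cords, against 675, 621, 490.0 and 604 in wildtype cords. SMA vehicle lay above all other arrays, with log2 fold changes of 0.53 against wildtype (adjusted p = 0.00056) and -0.49 in SMA ceftriaxone against SMA vehicle (adjusted p = 0.00174); without wildtype array 2 they were 0.55 and -0.49 (adjusted p = 0.000376 and 0.000767). Strap was at 0.12 (adjusted p = 0.176). Among methylosome and snRNP biogenesis genes 3 of 11 were higher and 1 lower in SMA vehicle. Prmt5, the enzyme that methylates Sm proteins before SMN binds them, read 1316, 1184, 1334 and 1214 in SMA ceftriaxone and 1564, 1594, 1663 and 1800.0 in SMA vehicle cords, against 1175, 1287, 1031 and 1084 in wildtype cords. It was higher in SMA vehicle by 0.53 (adjusted p = 0.00019) and lower in SMA ceftriaxone than in SMA vehicle (-0.39, adjusted p = 0.00307); without array 2 the values were 0.59 and -0.39 (adjusted p = 2.17e-05 and 0.000491). Phax, the adaptor that exports snRNA, and Coil, the coilin of Cajal bodies, differed likewise, by 0.52 and 0.52 in SMA vehicle (adjusted p = 0.000248 and 0.000351) and -0.43 and -0.36 in SMA ceftriaxone against SMA vehicle (adjusted p = 0.00168 and 0.00683). In SMA vehicle without array 2 they were at 0.54 and 0.58 (adjusted p = 0.000159 and 6.57e-05). Ncbp2, the small subunit of the cap-binding complex, had the opposite signs, -0.30 and 0.22 (adjusted p = 0.00256 and 0.0248).

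Of the U2 recruitment factors 3 of 7 were higher and 0 lower in SMA vehicle with all arrays, and 6 of 7 higher without wildtype array 2. Htatsf1, which chaperones U2, was higher by 0.40 (adjusted p = 0.00146) and lower in SMA ceftriaxone than in SMA vehicle (-0.32, adjusted p = 0.0086); in SMA vehicle without array 2 it was at 0.47 (adjusted p = 2.6e-05). Phf5a, a small subunit of SF3B, was higher in SMA vehicle by 0.38 (adjusted p = 0.0301; without array 2, 0.54 and adjusted p = 2.54e-05). For the remaining tri-snRNP partners 1 of 6 was higher (Sart1, 0.37, adjusted p = 0.0276; Cd2bp2 did not pass, 0.23, adjusted p = 0.05) and 0 lower, for the helicases 1 of 5 (Ddx39b, 0.33, adjusted p = 0.0126; Ddx41 passed only without array 2, 0.22 and adjusted p = 0.256 with it) and 0, and for the exon junction complex 2 of 3 (Rnps1, 0.49, adjusted p = 0.000362, and Casc3, 0.23, adjusted p = 0.0103) and 0. The PRP19 complex was mixed, with 1 of 13 higher and 4 lower, among them Syf2 (-0.40, adjusted p = 0.00232) and Cwc15 (-0.32, adjusted p = 0.00346). Partners of the minor spliceosome had 0 of 3 in either direction (Rnpc3 at -0.42 and Zmat5 at -0.20, adjusted p = 0.219 and 0.257). Without wildtype array 2 the higher and lower counts in SMA vehicle were 2 and 0 of 5 for the SMN complex, 5 and 3 of 11 for biogenesis, 4 and 0 of 6 for tri-snRNP partners, 4 and 3 of 13 for the PRP19 complex, 3 and 0 of 5 for the helicases, 2 and 0 of 3 for the exon junction complex and 0 of 3 for the minor partners, against 31.2% and 28.9% of all genes. In SMA ceftriaxone against SMA vehicle with all arrays, 1 gene of the SMN complex, 3 of biogenesis, 2 of U2 recruitment, 1 of the PRP19 complex, 1 helicase and 1 exon junction gene were lower, and 1 gene of biogenesis and 3 of the PRP19 complex were higher, against 17.8% lower and 19.9% higher over all genes. Without array 2 there were 1, 5, 3, 3, 2 and 2 lower in the same order of lists and 1 gene of biogenesis, 4 of the PRP19 complex and 1 minor partner higher (25.7% and 26.4%). In SMA ceftriaxone against wildtype none of the tested genes of the 8 lists was called with all arrays. Over all genes 3.84% were higher and 0.962% lower. Without array 2 the U2 recruitment factors U2af1 and Phf5a were higher (0.58 and 0.24, adjusted p = 0.00793 and 0.0467). The other 7 lists then had no call among their tested genes, which leave out Smn1.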

How the data were processed

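The deposited values are signal intensity per probe set, made by the authors with MAS5 per the submitters' processing notes; no version is given in the sources. All arrays had been brought to a trimmed mean of 699.9 (2% trimmed at each end, as read from the values), and 0 columns were left aside. The 64 control probe sets were set aside, and of the other 22626 those with a mean log2(signal + 16) above the 40th percentile were tested (13575, of which the dimmest had a geometric mean signal of 125). Probe sets with 1 symbol in the platform annotation were named. A linear model with 3 groups (limma 3.58.1 in R 4.3.3, lmFit and eBayes with a trend, 9 residual degrees of freedom) gave log2 fold changes and p-values adjusted by Benjamini-Hochberg over the 13575 probe sets, with a threshold of 0.05. The median SE for SMA vehicle against wildtype was 0.12, and 4 arrays per group limit the precision. The shares over all genes use the brightest probe set of each of 8004 tested genes. Figures were drawn with matplotlib 3.10.9.

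The members and gene lists were chosen with earlier results of these data known. Values on every array are given for all Sm core members and for the members of smallest p in each other class. They are also given for the 5 largest rises and falls past the threshold in each comparison. Snrpb2 falls outside these rules and was added as the partner of Snrpa1. Partner lists are given by counts with their 2 members of smallest p. Probe sets other than the brightest, and the partners Coil, Ncbp2 and U2af1, were named after their values were seen. Replicate numbers did not pair the arrays: correlations of deviations from the group means lay between -0.143 and 0.133. On simulated data for SMA vehicle against wildtype, the test found 2 of 50 probe sets shifted by 0.25 log2 units. It found 18 of 50 shifted by 0.5 and 43 of 50 shifted by 1, with 5 false calls. Far fewer probe sets were shifted there than the 6401 called in the data, so these shares do not give the power in the data. Alternatives were the offset, the normalization, the filter, array weights, the groups in the fit, a replicate block, an Xist covariate, averaging the probe sets of each gene and each array left out in turn. Those that combined another setting with leaving out wildtype array 2, and the fit of arrays of high Xist signal, were chosen after seeing the data.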

Additional observations from a re-analysis of the deposited data

Results flagged for a closer look

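Of 126 sets of 4 arrays (42 genes in 3 groups), 12 had an array far from the other 3 by Dixon's criterion, which chance meets in about 1 in 20 sets. In 6 of them wildtype array 2, the array with thymus markers, was far above the other wildtype arrays: Snrpa1 read 1770.4 there (next highest 1076.7), Snrpb 3208.7 (1813.1), Snrpe 7193.9 (3731.8), Snrpg 5228.8 (3160.5), Lsm8 1503.1 (925.7) and Prpf4b 1208.6 (760.3). The part of the thymus markers in these values was not tested. Wildtype array 3 was lowest for Lsm14b, at 575.6 against 726.7 for the next array. Among SMA ceftriaxone arrays, array 3 was highest for Prpf39, at 244.6 (next 209), and array 1 for Prpf40b, at 430.4 (next 311.3). Among SMA vehicle arrays, array 3 was lowest for Lsm4, at 1964.2 (next 2258.7), and for Sf3a2, at 1406.5 (next 1644.4), and array 2 was highest for Sf3b5, at 1420.8 (next 1260.3).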

How the results depend on the processing

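The number of members higher in SMA vehicle cords than in wildtype (14) moved to 26 with array quality weights and, without wildtype array 2, to 28 with an Xist covariate, 26 with median centring and 25 with quantile normalization. The number lower in SMA ceftriaxone than in SMA vehicle cords (9) moved to 15 with array quality weights, to 14 with only the 2 groups in the fit (where 1, Sf3b2, was higher), to 3 with an Xist covariate and to 17 with median centring without wildtype array 2. The number higher in SMA ceftriaxone than in wildtype cords (1) moved to 7 with array weights, 0 with only the 2 groups, and 2 with the probe sets of each gene averaged (Snrpa1 and Snrpd3). Without wildtype array 2 it was 4 with an Xist covariate, 5 with median centring and 9 with quantile normalization. Leaving out each array in turn gave 10 to 27 members higher and 0 to 1 lower in SMA vehicle against wildtype (the 1 being Sf3b2, without wildtype array 1), 4 to 15 lower and 0 higher in SMA ceftriaxone against SMA vehicle, and 1 to 9 higher and 0 lower in SMA ceftriaxone against wildtype; each upper end of a count above 1 is the fit without wildtype array 2. With the replicate number as a block the counts were 14 higher, 7 lower and 1 higher in the same order of comparisons. Sf3b4 turned to 0.0072 (adjusted p = 0.96) in SMA ceftriaxone against SMA vehicle with the mean of its probe sets, which disagree in sign. Snrpe turned to 0.22 (adjusted p = 0.0357) in SMA ceftriaxone against wildtype without wildtype array 2, on which it was highest, and to 0.24 (adjusted p = 0.0187) with quantile normalization as well; over all arrays left out in turn it ranged from -0.15 to 0.22. The cause was not tested. Without wildtype array 2, higher calls were 59.5% of all calls in SMA ceftriaxone against wildtype, and 39.8% with median centring. Over all members, comparisons and settings 3048 values kept their side of the threshold, 150 gained a call, 99 lost one and 3 turned.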
